A study of Mus musculus with 8 samples.

Results

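The non-additive response to menthol and LPS was examined in RAW 264.7 cells, a mouse macrophage line that came from a tumour induced by Abelson leukaemia virus. The members were all 8 Affymetrix arrays of the series, 2 in each of 4 groups, and the genes were chosen by 1 quantity, the interaction. The interaction is the menthol effect in the presence of LPS (LPS+M minus LPS) minus the menthol effect in its absence (M minus control), on the log2 scale. It is 0 where the effects of the agents add up, negative where LPS+M lay under the level expected from additive effects, and positive where it lay above. Of 8908 genes tested, 21 were called non-additive (0.236%), 3 with a positive interaction (0.0337%) and 18 with a negative one (0.202%). A call needed a Benjamini-Hochberg adjusted p under 0.05 over all tested genes in limma, and an interaction of at least 1.5-fold. By the same rule, LPS without menthol raised 17 of the 18, against 3.17% of all tested genes. Menthol lowered 16 of the 18 in the presence of LPS, against 2.49%, and 1 in its absence, against 1.54%. These comparisons use the arrays by which the genes were chosen, so the counts only describe the form of the interaction.

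In the LPS+M group, cells received menthol 1 h before LPS at 100 ng/ml for 6 h. The LPS group received the same LPS without menthol, the M group menthol without LPS, and the control group neither. The labels give no menthol dose and no harvest time for the M and control groups, so cells of M and LPS+M may have been exposed to menthol for unequal times, and such a difference cannot be told apart from an interaction. The 2 arrays of a group are labelled as biological replicates without a statement that the cultures were separate. Each p-value rests on the spread between the 2 arrays of a group, estimated over all 4 groups, which may be technical in part. limma draws this spread towards that of all tested genes (4 residual and 3.778 prior degrees of freedom). So few arrays limit the precision. All 8 markers of macrophages that were examined, among them Cd68, Lyz2 and Csf1r, lay well above 4.84, the average of all probe sets and the filter level for a tested gene. None of the markers of T cells, B cells, NK cells, neutrophils, mast cells, fibroblasts or epithelial cells did. The 2 arrays of LPS+M differed by a median of 0.113 in size over the tested genes, against 0.0763 for LPS, 0.0669 for M and 0.0687 for control. In such bulk samples, fewer responding cells and less RNA per cell cannot be told apart.

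LPS, a component of the outer membrane of Gram-negative bacteria, is sensed on macrophages by TLR4. One arm of this receptor, through the adapter MyD88, leads to NF-κB and the early cytokine and chemokine genes. The other arm, through the adapter TRIF, leads to IRF3 and interferon-β, which is secreted and induces interferon-stimulated genes through its receptor. Many such genes carry an interferon-stimulated response element (ISRE) in their promoters. Menthol is a monoterpene alcohol of mint, known as an agonist of the cold receptor TRPM8.

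The promoters of 4 genes with a negative interaction are shown because each holds an ISRE-like match in the stretch 150 to 51 bases before the start site. They are RefSeq sequences of GRCm38.p6, read 5′ to 3′ on the strand of the gene, with matches in capitals. The pattern searched was GAAANNGAA on both strands, so that a match reads TTCNNTTTC where it lies on the other strand.
Ifit1: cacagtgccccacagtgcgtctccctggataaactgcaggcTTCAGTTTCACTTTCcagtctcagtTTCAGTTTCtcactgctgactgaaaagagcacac
Saa3: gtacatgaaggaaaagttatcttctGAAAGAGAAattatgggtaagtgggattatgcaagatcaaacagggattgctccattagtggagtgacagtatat
Gbp2b: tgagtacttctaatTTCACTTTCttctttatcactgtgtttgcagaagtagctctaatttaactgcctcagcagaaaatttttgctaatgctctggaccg
Irak3: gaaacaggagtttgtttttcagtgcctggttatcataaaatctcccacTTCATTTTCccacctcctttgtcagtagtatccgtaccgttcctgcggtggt
The stretches lie at chr19:34640739-34640838 on the plus strand for Ifit1, chr7:46715727-46715826 on the minus strand for Saa3, chr3:142594697-142594796 on the plus strand for Gbp2b, and chr10:120202181-120202280 on the minus strand for Irak3. Ifit1 held 3 matches, of which the first pair overlapped. Over the whole window of 250 bases before to 50 after the start, the pattern was present in a promoter of 5 of 15 genes with a negative interaction that have a promoter sequence (33.3%), the fifth being Clec2d. It was present in 8.49% of the 7362 tested genes with a promoter and in 9.76% of all 27025 genes with one. The stretch of Irak3 comes from its second promoter, and its first promoter held no match. Among the called interferon-stimulated genes with a promoter, Ifit1 and Gbp2b held a match, and Cmpk2 and Ifit2 held none. Saa3, Irak3 and Clec2d were not on the list of interferon-stimulated genes used here. No promoter sequence was matched for Rtp4, Usp18, Myc and Cd83. The other patterns searched on both strands were GAS (TTCNNNGAA, in 13.3% of the 15 genes against 7.93% of tested genes), NF-κB (GGGANTTTC, 6.67% against 1.1%), ARE (TGACNNNGC, 13.3% against 16.9%), CARE (TGATGNAA, 0% against 2.7%), E-box (CACGTG, 13.3% against 12.6%), AP-1 (TGANTCA, 6.67% against 5.8%) and CRE (TGACGTCA, 0% against 3.86%), each in at most 2 of the 15. A match is a description of the letters and not a bound site.

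Among the non-additive genes, 6 are interferon-stimulated genes, and all 6 had a negative interaction. Ifit1, which encodes a protein that binds viral RNA, had the largest interaction of the tested genes. It measured 4.14 and 4.59 on the LPS+M arrays, 8.04 and 7.90 on the LPS arrays, 3.84 and 3.56 on the M arrays, and 3.86 and 3.84 on the control arrays. The LPS arrays thus stood far above the other 6, and the LPS+M arrays lay just above those without LPS. LPS raised Ifit1 1.59-fold with menthol (log2 0.67 ± 0.15) and 17.4-fold without it (4.12 ± 0.15). The means of LPS+M (4.37), M (3.70) and control (3.85) lay under 4.84, so these folds and the size of the interaction rest on values close to the background. The measured mean of LPS+M was 4.37, against 7.82 expected from additive effects, which gave an interaction of -3.45 ± 0.21 (limma adjusted p = 0.00236). Values after ± are standard errors from the fit, with n = 2 arrays per group.

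Rtp4, an interferon-induced gene of the receptor transporter family, measured 5.85 and 5.99 on the LPS+M arrays, 8.21 and 8.20 on the LPS arrays, 6.13 and 6.38 on the M arrays, and 6.19 and 6.69 on the control arrays. Both LPS+M arrays lay under all other arrays, and the LPS response was -0.33 ± 0.16 with menthol (not called) and 1.76 ± 0.16 without, a rise. The interaction was -2.09 ± 0.22 (limma adjusted p = 0.0182). Cmpk2, which encodes a mitochondrial nucleotide kinase, had 6.26 and 6.51 in LPS+M, 7.82 and 8.44 in LPS, 6.25 and 6.41 in M, and 6.10 and 6.17 in control. LPS+M overlapped M, and the LPS response was 0.057 ± 0.19 with menthol and 1.99 ± 0.19 without (interaction -1.94 ± 0.26, limma adjusted p = 0.0419). Usp18, whose protease removes ISG15 and dampens interferon receptor signalling, had 6.43 and 6.39 in LPS+M, 8.52 and 8.77 in LPS, 6.44 and 6.68 in M, and 6.89 and 7.34 in control. Both LPS+M arrays were under both control arrays, and the interaction was -1.68 ± 0.22 (limma adjusted p = 0.0419).

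Gbp2b, a guanylate-binding protein gene that responds to interferon, kept a large part of its LPS response. It measured 6.11 and 6.44 on the LPS+M arrays, 7.84 and 7.86 on the LPS arrays, 4.10 and 3.94 on the M arrays, and 4.10 and 4.18 on the control arrays. LPS+M stood between LPS and the arrays without LPS, with no overlap. LPS raised Gbp2b 4.79-fold with menthol and 13.1-fold without, and the interaction was -1.45 ± 0.16 (limma adjusted p = 0.0182). Its means in M (4.02) and control (4.14) lay under 4.84, so the size of both folds rests on values close to the background. Without the LPS arrays the mean of Gbp2b lay under 4.84, so it passed the filter through them. Ifit2, a relative of Ifit1, was the 1 gene with a negative interaction that menthol lowered both with LPS (-1.44 ± 0.08) and without it (-0.65 ± 0.08). Its level was 7.77 in LPS+M, 9.21 in LPS, 7.84 in M and 8.48 in control (group means), and the interaction was -0.80 ± 0.11 (limma adjusted p = 0.0419).

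**Figure D1:**
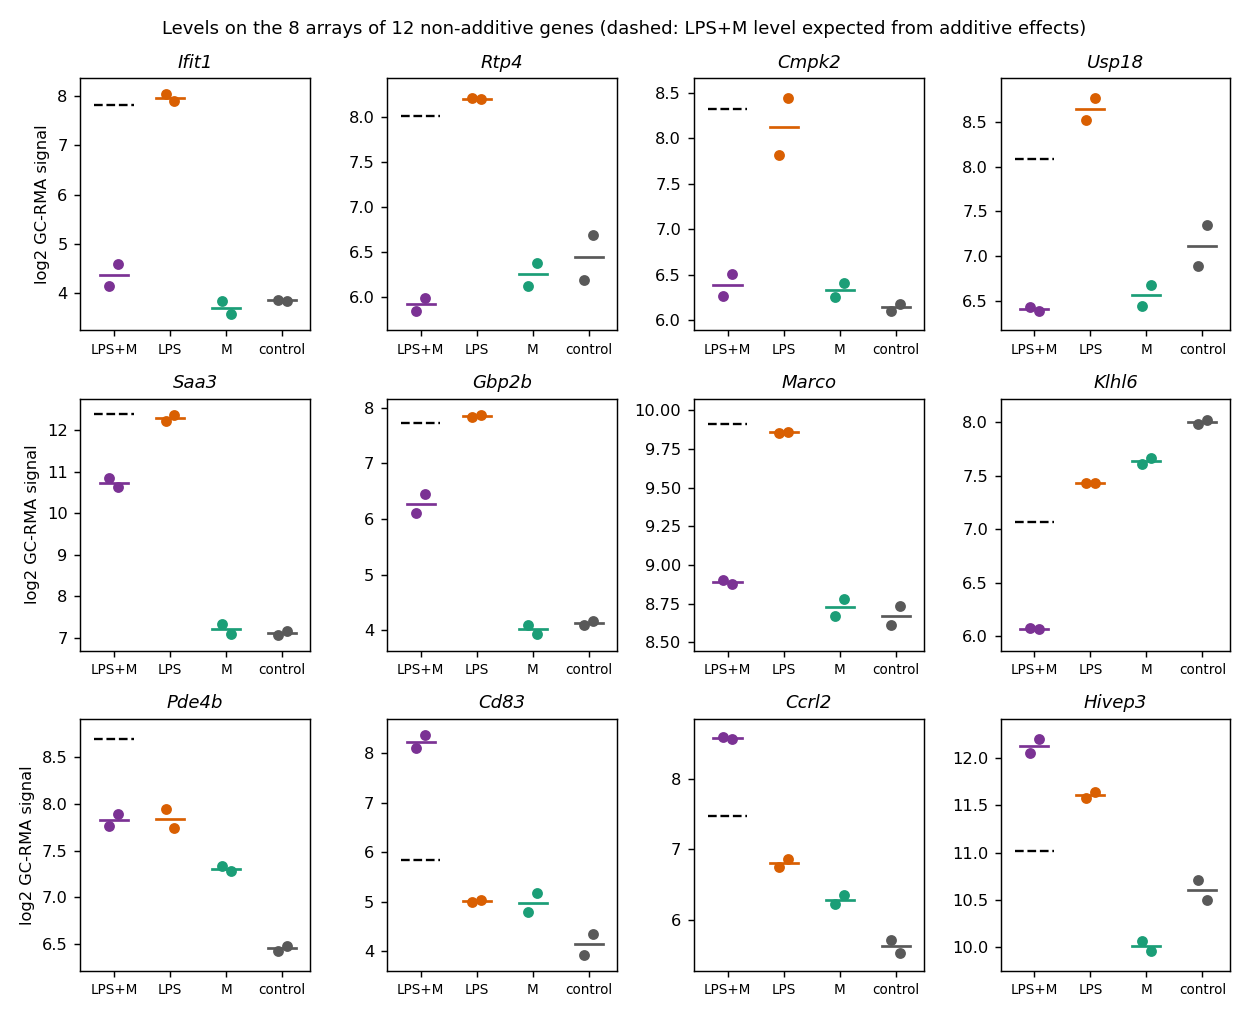
Log2 GC-RMA signal (vertical axes, a separate range for each gene) on the 8 arrays for 12 non-additive genes, with points for arrays, solid lines for group means and a dashed line for the LPS+M level expected from additive effects. LPS+M lay under the dashed line in the 9 genes with a negative interaction and above it in Cd83, Ccrl2 and Hivep3, and Pde4b alone among the 9 had LPS+M arrays that overlapped the LPS arrays.

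The interferon-stimulated list held 52 genes, of which 34 passed the filter. Of these 34, 6 had a called negative interaction (17.6%, against 0.202% of all tested genes), and none a positive one, while 21 (61.8%) had an unadjusted p under 0.05 in limma, against 10.0% of all tested genes. Their median interaction was -0.37, and 31 lay under 0, whereas the median of all tested genes was 0.0055 and 51.7% lay above 0. In LPS+M minus M 7 of the 34 rose and none fell, against 2.39% of all tested genes that rose, and in LPS minus control 17 rose and none fell, against 3.17%. Menthol lowered 16 of them with LPS, against 2.49% of all tested genes, and 1, Ifit2, without, against 1.54%. It raised none with LPS, against 4.22%, and 1, Rsad2, without, against 3.01%. Most were nonetheless slightly lower with menthol alone: M minus control lay under 0 in 23 of the 34 and above in 11. Its median was -0.13, against 0.021 for all tested genes. The list holds genes that passed the filter through LPS. Ifit1 did so through the LPS group alone, the only 1 of its group means above 4.84.

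Not all interferon-stimulated genes followed. Gbp2 (-0.98 ± 0.19, adjusted p = 0.124), Gbp7 (-1.31 ± 0.26, adjusted p = 0.129), Oasl1 (-1.0 ± 0.23, adjusted p = 0.184) and Xaf1 (-0.86 ± 0.16, adjusted p = 0.123) had sizeable negative values that did not pass the test. Parp14, an ADP-ribosyltransferase gene, had an interaction of 0.0018 ± 0.11, with LPS responses of 1.00 with menthol and 0.99 without. Gbp3 had LPS responses of 2.15 with menthol and 2.53 without, and its interaction of -0.38 ± 0.13 was not called (adjusted p = 0.343). The highest value in the list was that of Herc6 (0.21 ± 0.14, not called). These 7 genes were chosen after their values were seen.

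Rsad2, which encodes the antiviral enzyme viperin, had the opposite menthol effects with and without LPS. It measured 7.53 and 7.42 on the LPS+M arrays, 8.41 and 8.36 on the LPS arrays, 5.88 and 6.53 on the M arrays, and 5.20 and 5.46 on the control arrays. The groups did not overlap, and the M arrays stood above the control arrays while the LPS+M arrays stood under the LPS arrays. Menthol thus raised Rsad2 without LPS (0.88 ± 0.19) and lowered it with LPS (-0.91 ± 0.19). The interaction of -1.79 ± 0.27 fell just short of the call (limma adjusted p = 0.0600). The arrays of M were spread more widely than those of the other groups in this gene.

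Outside the interferon-stimulated genes, Saa3, a serum amyloid A gene of the acute-phase response, had the largest negative interaction among the called genes. It measured 10.84 and 10.63 on the LPS+M arrays, 12.23 and 12.36 on the LPS arrays, 7.33 and 7.10 on the M arrays, and 7.06 and 7.16 on the control arrays. M and control overlapped, whereas LPS+M lay under LPS on both arrays. LPS raised Saa3 11.5-fold with menthol and 36.3-fold without, and the interaction was -1.66 ± 0.15 (limma adjusted p = 0.0145). Marco, a scavenger receptor gene of macrophages, had 8.90 and 8.88 in LPS+M, 9.86 and 9.86 in LPS, 8.67 and 8.78 in M, and 8.61 and 8.74 in control. Its LPS response was 0.16 ± 0.07 with menthol (not called) and 1.18 ± 0.07 without, with an interaction of -1.02 ± 0.10 (limma adjusted p = 0.0171).

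Genes of signalling and its feedback were also among the 18. Irak3, which encodes an inhibitory kinase of Toll-like receptor signalling, rose in LPS by 1.61 ± 0.06 with menthol and 2.23 ± 0.06 without, and its interaction of -0.62 ± 0.08 was the smallest of those called (limma adjusted p = 0.0419). Ptger4, which encodes the EP4 receptor of prostaglandin E2, had 10.40 and 10.50 in LPS+M, 11.85 and 11.78 in LPS, 9.96 and 9.97 in M, and 10.52 and 10.46 in control. The menthol effect was -1.36 ± 0.07 with LPS, a fall, and -0.52 ± 0.07 without, which was under the fold minimum, and the interaction was -0.84 ± 0.09 (limma adjusted p = 0.0182). Myc, a transcription factor gene of growth, had 7.09 and 7.21 in LPS+M, 7.96 and 7.94 in LPS, 7.02 and 7.02 in M, and 6.96 and 6.80 in control. The LPS response was 0.13 ± 0.07 with menthol, which was not called, and 1.07 ± 0.07 without (interaction -0.95 ± 0.11, limma adjusted p = 0.0182).

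Pde4b and Otud1 reached a negative interaction by another route. Pde4b, which encodes a phosphodiesterase that degrades cAMP, had 7.76 and 7.89 in LPS+M, 7.94 and 7.74 in LPS, 7.34 and 7.28 in M, and 6.43 and 6.48 in control. LPS+M and LPS overlapped, and both stood above M, which stood above control. Menthol thus raised Pde4b without LPS (0.85 ± 0.08) and had a value of -0.015 ± 0.08 with LPS, for an interaction of -0.87 ± 0.12 (limma adjusted p = 0.0424). Otud1, a deubiquitinase gene, had menthol effects of -0.40 ± 0.07 with LPS and 0.47 ± 0.07 without. Neither reached the fold minimum, and their difference did (-0.87 ± 0.10, limma adjusted p = 0.0182).

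Klhl6, which encodes an adapter of a ubiquitin ligase, was the 1 gene of the 18 that LPS did not raise. It measured 6.08 and 6.06 on the LPS+M arrays, 7.43 and 7.44 on the LPS arrays, 7.61 and 7.67 on the M arrays, and 7.99 and 8.03 on the control arrays. The 4 groups did not overlap, and LPS+M was the lowest. The LPS effect was -1.57 ± 0.06 with menthol, a fall, and -0.57 ± 0.06 without, which was just under the fold minimum. The interaction was -1.0 ± 0.08 (limma adjusted p = 0.0105). Among the rest, Inka1, which encodes an inhibitor of the kinase PAK4, had an interaction of -1.08 ± 0.15. Cyria, whose product binds Rac1, had -0.84 ± 0.10. Clec2d, a C-type lectin gene, had -0.83 ± 0.11, and Gphn, which encodes the scaffold protein gephyrin, had -0.79 ± 0.11. The LPS response of Cyria was 1.66 with menthol and 2.50 without, and that of Clec2d was 0.082 with menthol and 0.91 without. Cyria, Clec2d and Gphn were named after their values were seen, so that every called gene is described.

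Cd83 had the largest positive interaction. It encodes a surface protein of mature dendritic cells and activated macrophages. It measured 8.10 and 8.37 on the LPS+M arrays, 5.00 and 5.03 on the LPS arrays, 4.79 and 5.17 on the M arrays, and 3.93 and 4.36 on the control arrays. LPS and M overlapped just above control, and LPS+M stood far above all 3. LPS raised Cd83 9.54-fold in the presence of menthol and 1.83-fold in its absence. Menthol likewise raised it 9.29-fold with LPS and 1.78-fold without. The measured mean of LPS+M was 8.23, against 5.85 expected from additive effects, and the interaction was 2.38 ± 0.24 (limma adjusted p = 0.0182). The mean of control (4.14) lay under 4.84, and those of M (4.98) and LPS (5.02) lay just above it. The folds and the size of the interaction thus rest in part on values close to the background. Without the LPS+M arrays the mean of Cd83 lay under 4.84, so it passed the filter through the group where it is high. The adjusted p was computed after this filter.

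Ccrl2, which encodes an atypical receptor that binds chemerin, had 8.60 and 8.57 in LPS+M, 6.75 and 6.86 in LPS, 6.22 and 6.36 in M, and 5.72 and 5.53 in control. The 4 groups were ordered LPS+M, LPS, M and control with no overlap. Menthol raised it by 1.78 ± 0.09 with LPS and by 0.66 ± 0.09 without, and the interaction was 1.12 ± 0.12 (limma adjusted p = 0.0182). Hivep3, a zinc finger gene whose product binds κB sequences, had 12.05 and 12.20 in LPS+M, 11.58 and 11.65 in LPS, 10.07 and 9.96 in M, and 10.71 and 10.50 in control. Here M was the lowest and LPS+M the highest group. Menthol lowered Hivep3 without LPS (-0.59 ± 0.09) and had a value of 0.52 ± 0.09 with LPS, which was under the fold minimum, for an interaction of 1.11 ± 0.13 (limma adjusted p = 0.0222).

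**Figure D2:**
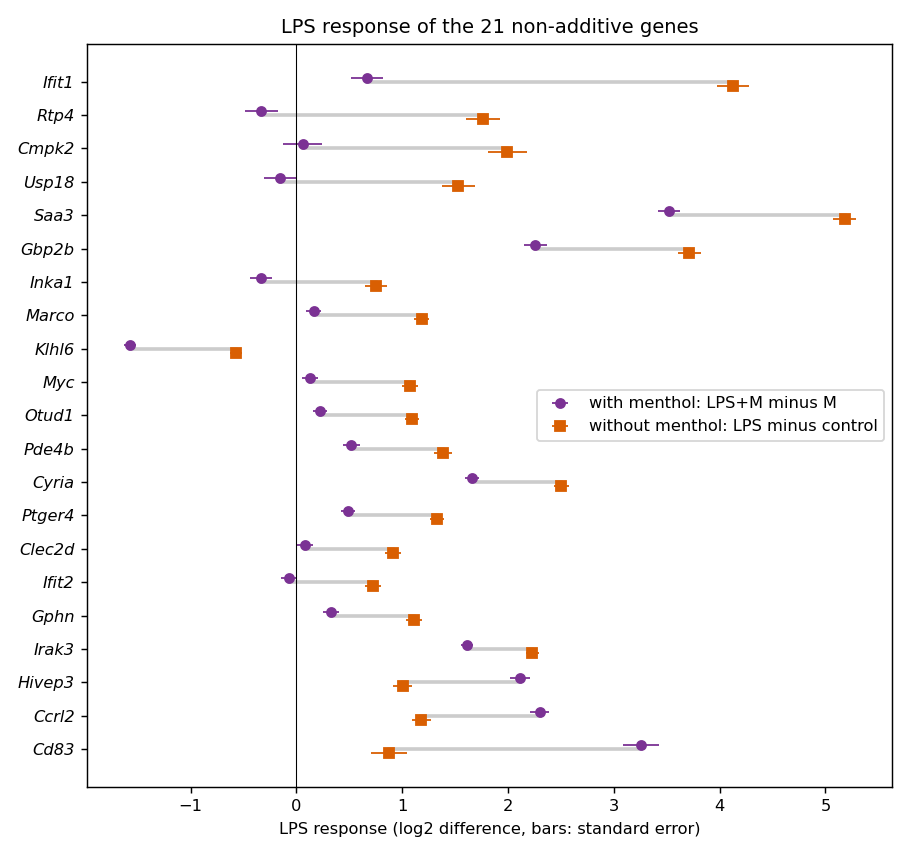
LPS response of each of the 21 non-additive genes (horizontal axis, log2 difference), with circles for LPS+M minus M, squares for LPS minus control, bars for standard errors and genes ordered by interaction. In 17 of the 18 genes with a negative interaction the circle lay nearer to 0 than the square, Klhl6 being the exception, and in the 3 genes with a positive one it lay farther from 0.

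Set side by side, the comparisons give the form of each interaction, as a description, since they use the same arrays as the interaction itself. Menthol with LPS (LPS+M minus LPS) raised 4.22% and lowered 2.49% of all tested genes, and it lowered 16 of the 18 genes with a negative interaction. Menthol without LPS (M minus control) raised 3.01% and lowered 1.54% of all genes. Of the 18, it lowered Ifit2, raised Pde4b and left 16 not called. The form shared by 15 of the 18 was a fall in the presence of LPS and no call in its absence. No call is not the same as no effect. Among these 15, Usp18 (-0.56), Ptger4 (-0.52), Klhl6 (-0.37) and Cyria (-0.36) were also lower in M than in control. Their limma adjusted p was under 0.05, and they missed only the fold minimum. The rest of the 15 did not reach that p. LPS with menthol (LPS+M minus M) raised 2.39% and lowered 1.77% of all genes. It raised 5 of the 18 (Ifit1, Saa3, Gbp2b, Cyria and Irak3), lowered Klhl6 and left 12 not called. LPS without menthol (LPS minus control) raised 3.17% and lowered 2.96% of all genes, and it raised 17 of the 18 and all 3 with a positive interaction. In 7 of the 18 the mean of LPS+M lay under that of control.

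The levels without LPS varied widely. In genes with a negative interaction, group means ran over 3.70 to 9.96 in M, with a median of 7.11, and over 3.85 to 10.49 in control, with a median of 6.99. For comparison, the median over all tested genes was 9.21 in M and 9.17 in control. The M and control arrays overlapped in 7 of the 18. Ifit1 and Gbp2b alone among the 21 had means under 4.84 in both M and control, so that a decrease by menthol without LPS was measured there close to the background. Of all tested genes, 19 (0.213%) were low in this sense. The other 16 of the 18 had a level without LPS above the filter in at least 1 of M and control. In Cd83 the mean was 4.98 in M and 4.14 in control. Hivep3 was high throughout on the probe set used (10.02 in M and 10.61 in control), whereas its other probe sets had means of 2.13 to 2.76.

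**Figure D3:**
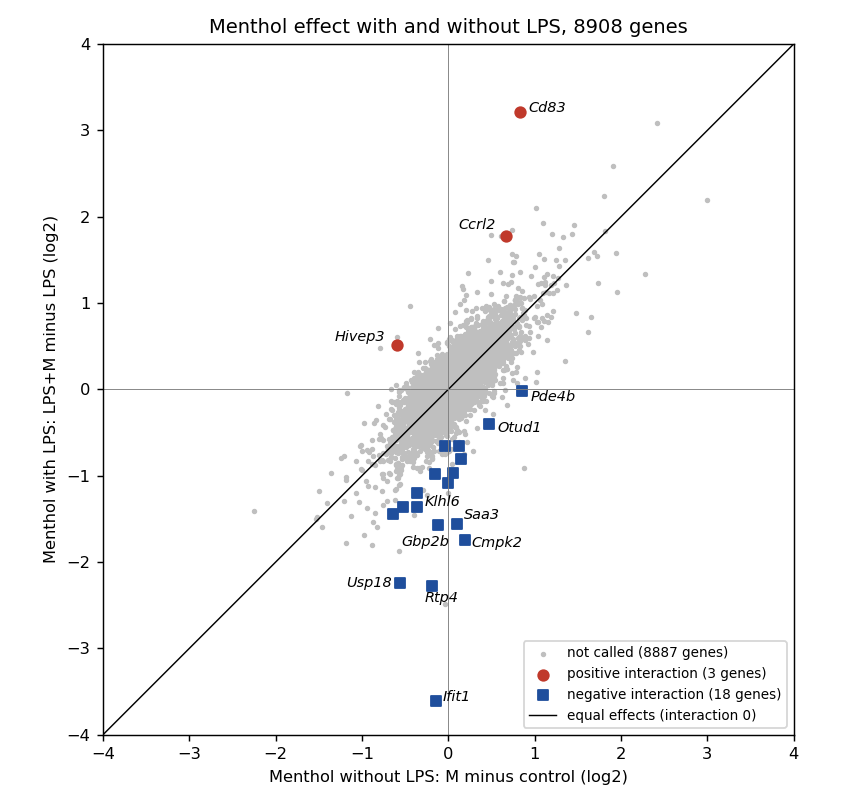
Menthol effect with LPS (vertical axis, LPS+M minus LPS, log2) against that without LPS (horizontal axis, M minus control, log2) for the 8908 tested genes, with squares for the 18 negative and circles for the 3 positive interactions and a line of equal effects. Most genes lay along the line, whereas Ifit1, Rtp4, Saa3 and others lay near 0 on the horizontal axis and far under it on the vertical one.

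For most genes the menthol effect differed little between the states, and most genes had no called menthol effect in either. M minus control and LPS+M minus LPS share no array, and across the 8908 genes they had a Pearson's r of 0.784. The points share the probe sets and the normalization, and genes are not independent replicates. Menthol raised 185 genes in both states, which is 69% of the 268 raised without LPS and 49.2% of the 376 raised with it. It lowered 90 genes in both, 65.7% of the 137 lowered without LPS and 40.5% of the 222 lowered with it. Over all tested genes, menthol raised 4.22% with LPS and 3.01% without, and lowered 2.49% with LPS and 1.54% without. Of the genes raised without LPS 30.6% were not called with it, and of those lowered 33.6%. Called in opposite directions were only Rsad2 and Elmo2, an engulfment gene, which menthol raised with LPS (0.61 ± 0.14) and lowered without (-0.59 ± 0.14). The interaction of Elmo2 was 1.20 ± 0.19 and not called (limma adjusted p = 0.0805). From the 2.5th to the 97.5th percentile, the interactions ran over -0.39 to 0.40, and 98.5% were under 1.5-fold in size. The median standard error was 0.113 for the interaction and 0.0799 for M minus control. Of 134 genes with an interaction of at least 1.5-fold, 113 were not called, which does not show that they were additive.

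Some genes with the largest rises were not called non-additive, whereas Saa3 and Ifit1, whose LPS rises were also among the largest, were called. Acod1, whose enzyme converts cis-aconitate to itaconate, had the largest fitted LPS response. It measured 10.79 and 10.66 in LPS+M, 11.08 and 11.06 in LPS, 3.64 and 3.83 in M, and 4.24 and 4.61 in control. The response was 6.98 ± 0.12 with menthol and 6.64 ± 0.12 without, and the interaction was 0.34 ± 0.17 (adjusted p = 0.572). Its means of 3.74 in M and 4.43 in control lay under 4.84, close to the background, so that the size of its LPS responses and their rank rest on values near the background. Slc7a11, a cystine transporter gene, had menthol effects of 2.19 ± 0.12 with LPS and 2.99 ± 0.12 without (interaction -0.80 ± 0.16, adjusted p = 0.146), and lay above additivity on a linear scale (0.87). Ddit4, an inhibitor of mTORC1, had 3.08 ± 0.09 with LPS and 2.42 ± 0.09 without (interaction 0.67 ± 0.13, adjusted p = 0.129). These 3 were chosen for the size of their responses.

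A list of 18 genes was drawn from those the study names, some from its protein measurements and some from these arrays, so that it is no independent evidence. Of the 18, 17 were matched and 14 passed the filter. Ifit1 was the 1 called (7.14%, against 0.202% of all tested genes). Menthol lowered the chemokine genes Ccl2, Ccl3, Ccl4 and Ccl12 in both states. Ccl2 had 11.72 and 11.48 in LPS+M, 13.08 and 13.08 in LPS, 10.73 and 10.92 in M, and 12.35 and 12.35 in control. The menthol effect was -1.48 ± 0.09 with LPS and -1.52 ± 0.09 without, and the interaction was 0.042 ± 0.13. It was -0.77 with LPS and -1.21 without for Ccl3, and -0.65 with LPS and -1.01 without for Ccl4. The interaction was 0.44 ± 0.13 for Ccl3 (limma unadjusted p = 0.00999, adjusted p = 0.278), 0.36 for Ccl4 and 0.09 for Ccl12 on the log2 scale, and none was called. On a linear scale, where additivity means equal differences in signal, the log2 ratio of observed to expected LPS+M was -0.76 for Ccl2, -0.61 for Ccl3, -0.30 for Ccl4 and -0.41 for Ccl12, of opposite sign. All 21 called genes kept their sign on that scale, 11 of them moved by more than the spread between arrays, and Pde4b had -0.40 there, under the 1.5-fold minimum. Tnf had an interaction of -0.28, Tlr1 -0.44, Ccl9 -0.11, Cxcl2 0.26 and Nfkbia, the gene of the NF-κB inhibitor IκBα, -0.68, and none of the 5 was called.

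Other genes of this set lay just outside the threshold. Tnfaip3, which encodes the NF-κB inhibitor A20, had 5.52 and 4.77 in LPS+M, 7.83 and 7.44 in LPS, 3.35 and 3.40 in M, and 3.12 and 3.71 in control. The means of M (3.38) and control (3.42) lay under 4.84, close to the background. LPS+M lay between LPS and the arrays without LPS, and the interaction was -2.45 ± 0.38 (limma adjusted p = 0.0723). Cxcl10, a chemokine gene that interferons induce, had an interaction of -1.19 ± 0.18 (adjusted p = 0.0595), and Ccl5 had -0.73 ± 0.12 (adjusted p = 0.0805). Just inside the threshold were Pde4b and the 7 genes with adjusted p = 0.0419. Among the nearest outside were also Bhlhe40 (0.79 ± 0.12, adjusted p = 0.0595) and Gpr31b (-0.66 ± 0.10, adjusted p = 0.0595).

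Il1b, which encodes interleukin-1β, did not pass the filter and is described on its values. It measured 3.15 and 3.22 on the LPS+M arrays, 5.90 and 5.41 on the LPS arrays, 3.09 and 3.08 on the M arrays, and 3.10 and 3.08 on the control arrays. Only the LPS arrays stood above the filter level, and the other 6 lay within 3.08 to 3.22. Without a filter its interaction was -2.47 ± 0.21 (limma adjusted p = 0.0672). With genes kept where any group mean passed the filter level it was called (limma adjusted p = 0.00794), a setting that a gene high in 1 group passes through that group. Il6 and Csf3 lay under 2.66 on every array, near the background.

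**Figure D4:**
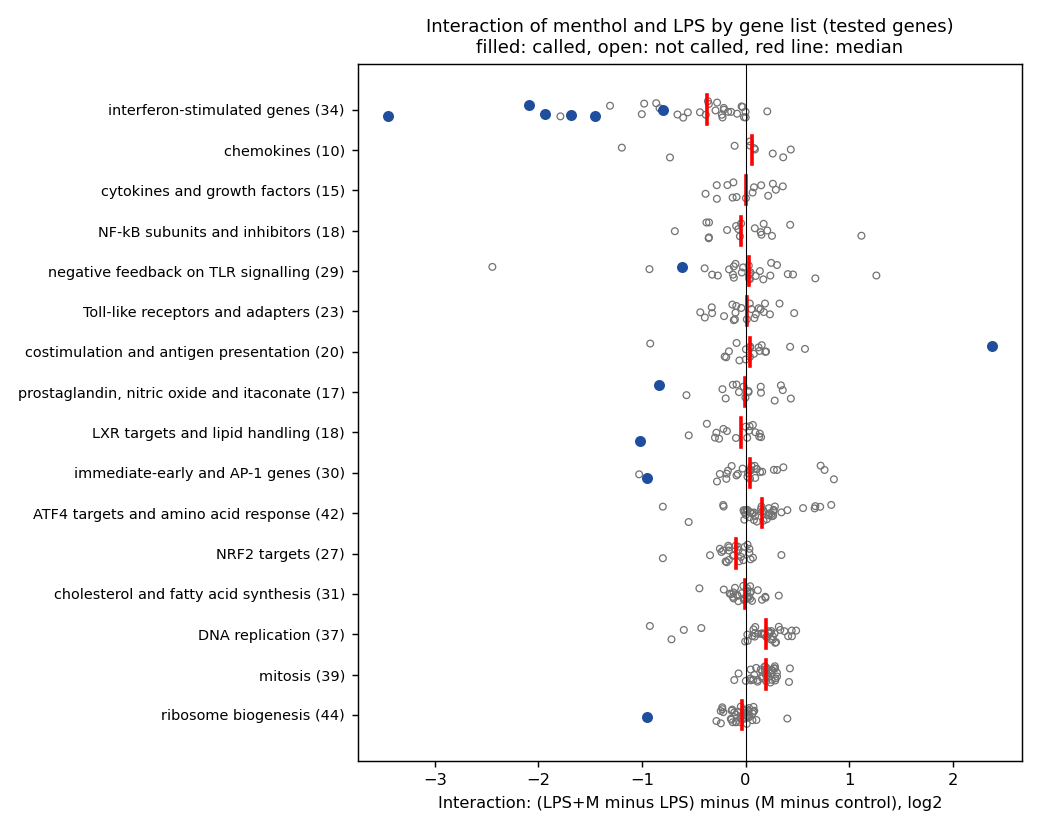
Interaction (horizontal axis, log2) of the tested genes of 16 gene lists, with filled points for called genes, open points for genes not called, red lines for medians and the number of tested genes in parentheses. The interferon-stimulated genes extended farthest to the left and held 6 filled points, whereas the genes of mitosis and DNA replication gathered to the right of 0 with none.

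Beyond the interferon-stimulated genes, no list of genes held more than 1 called gene. The counts stand against 0.236% of all tested genes called in either direction and against 10.0% with an unadjusted p under 0.05. Irak3 was the 1 called of 29 genes of negative feedback, Ptger4 of 17 genes of prostaglandin, nitric oxide and itaconate, Marco of 18 LXR and lipid genes, and Cd83 of 20 genes of costimulation and antigen presentation. Ccrl2 was the 1 called of 29 adhesion and migration genes, and Myc the 1 called of 44 ribosome biogenesis genes and of 30 immediate-early genes. Of the 10 tested chemokine genes none was called in limma and 3 had an unadjusted p under 0.05, with a median interaction of 0.065. None was called of 18 NF-κB genes (median -0.048, 5 with an unadjusted p under 0.05), 23 genes of Toll-like receptors and adapters (median 0.013, 5 with an unadjusted p under 0.05) and 27 NRF2 targets (median -0.096, 4 with an unadjusted p under 0.05). Menthol lowered 9 of 31 genes of cholesterol and fatty acid synthesis in each state, against 2.49% of all tested genes with LPS and 1.54% without. It raised none of them, and the list had a median interaction of -0.0088, with 0 called and 0 under an unadjusted p of 0.05 in limma. The lists of cytokines, chaperones, glycolysis, macrophage transcription factors, autophagy, apoptosis, TREM receptors and TRP channels also held no called gene, with medians between -0.073 and 0.039. In these 8 lists 2 to 10 genes had an unadjusted p under 0.05, the most among the macrophage transcription factors (10 of 33).

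Small shifts of 1 sign ran through 3 further lists without a called gene. Of 39 mitosis genes, 37 had an interaction above 0, with a median of 0.20, and 15 had an unadjusted p under 0.05 in limma. Their median LPS response was -0.055 with menthol and -0.24 without, with 27 under 0 with menthol and 36 without. Of 37 DNA replication genes, 32 lay above 0, also with a median of 0.20, and 13 had an unadjusted p under 0.05. Their median LPS response was -0.28 with menthol and -0.45 without. Within this list, Ccne2, a cyclin gene of entry into S phase, stood apart at -0.92 (adjusted p = 0.346), and Cdc6, which licenses replication origins, at -0.71 (adjusted p = 0.124). Of 42 targets of ATF4, a transcription factor of amino acid shortage, 34 lay above 0, with a median of 0.16, and 15 had an unadjusted p under 0.05. Menthol raised 25 of the 42 with LPS and 17 without, and lowered none in either state, against 4.22% of all tested genes raised with LPS and 3.01% without. In all 3 lists the shares with an unadjusted p under 0.05 stand against 10.0% of all tested genes. Leaving out 1 array left the medians at 0.19 to 0.21 for mitosis, 0.15 to 0.24 for DNA replication and 0.12 to 0.18 for the ATF4 targets. The cyclin gene and Cdc6 were named after their values were seen.

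The calls changed when 1 array was left out, whereas the values changed less. Each such fit has 1 array in a group and fewer degrees of freedom. Whether a change came from the array itself or from this loss was not tested. The number of positive and negative calls was 0 and 4 without LPS+M replicate 1 and 8 and 32 without LPS+M replicate 2. It was 10 and 13 without LPS replicate 1, 8 and 9 without LPS replicate 2, 0 and 5 without M replicate 1, and 0 and 2 without M replicate 2. It was 2 and 2 without control replicate 1, and 6 and 7 without control replicate 2. Over these 8 settings, Ifit1 was called in 8, Saa3 in 7, Klhl6 in 6, Cd83 and Rtp4 in 5, Marco and Ccrl2 in 4, and Gbp2b in 3. Ifit2 was called in none, and the other 12 in 1 or 2. No called gene changed sign, and Ifit1 stayed between -3.68 and -3.23, Saa3 between -1.78 and -1.54, Rtp4 between -2.35 and -1.84, and Cd83 between 2.17 and 2.6. Of the interferon-stimulated genes, 2 and 4 were called without the first and the second LPS+M array, 5 and 4 without those of LPS, 3 and 1 without those of M, and 2 and 3 without those of control. The median interaction of that list stayed between -0.49 and -0.34.

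Second probe sets existed for 9 of the 21 genes. A second probe set gave an interaction of -0.92 ± 0.22 for Marco, -0.97 ± 0.24 for Ptger4, -0.77 ± 0.30 for Pde4b and -0.41 ± 0.07 for Irak3. The first 3 of these were above the filter level. The remaining 4 probe sets of Pde4b gave -0.066 to 0.014. For Gphn, 2 further probe sets gave -0.86 ± 0.43 and -0.36 ± 0.39. The other probe sets of Rtp4, Cmpk2, Cyria and Hivep3 had means of 2.13 to 3.49, near the array medians of 2.99 to 3.04, with interactions of 0.0037 to 0.40.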

How the data were processed

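RNA of 8 samples of RAW 264.7 cells was amplified, labelled and hybridised to Affymetrix mouse arrays with 45101 probe sets. The deposited log2 values were made by the authors with GC-RMA (the submitters' processing notes name GCRMA 2.10.0 and R 2.6.1), which corrects background by the GC content of probes, quantile normalizes the arrays and summarises probe sets. Differences between arrays therefore assume equal distributions of signal. Of the probe sets, 34945 carried 1 symbol, 932 several and 9160 none, and 64 were controls.

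For each of 18193 genes the single-symbol probe set with the highest mean was used, and 8908 genes with a mean above 4.84 were kept. limma 3.58.1 was run in R 4.3.3 on all 8 arrays at once, with lmFit and eBayes (4 residual and 3.778 prior degrees of freedom). Calls needed an effect of at least 1.5-fold and p under 0.05 after Benjamini-Hochberg adjustment over all kept genes. An exact permutation test was not used, since 2 arrays a group are too few. The fit was also run on simulated data with independent normal noise, which does not show that the calls hold in these arrays. The text names up to 12 called genes in each direction, up to 2 called members of a list, 18 genes that the study names as LPS-induced or lowered by menthol, and exceptions where stated. The 25 gene lists and the motifs were written by hand. The members and lists were chosen with earlier results of these data known. The alternatives were other filters, probe sets, fold minimums, normalizations and models of spread, a replicate block, the linear scale and leaving out each array. The gene C3 was not analysed here.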

Additional observations from a re-analysis of the deposited data

Results flagged for a closer look

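In 21 genes the effect of menthol differed between cells with and without LPS by the test of the difference itself, the interaction term of the limma fit (adjusted p = 0.00236 to 0.0424). LPS+M exceeded the additive level by 2.38 in Cd83, 1.12 in Ccrl2 and 1.11 in Hivep3 on the log2 scale. Among interferon-stimulated genes the interaction was -3.45 in Ifit1, -2.09 in Rtp4, -1.94 in Cmpk2, -1.68 in Usp18, -1.45 in Gbp2b and -0.80 in Ifit2. Among the other genes it was -1.66 in Saa3, -1.08 in Inka1, -1.02 in Marco, -1.0 in Klhl6, -0.95 in Myc, -0.87 in Otud1, -0.87 in Pde4b, -0.84 in Cyria, -0.84 in Ptger4, -0.83 in Clec2d, -0.79 in Gphn and -0.62 in Irak3. Groups of 2 arrays are too small for a test of single arrays that stand apart. Whether the time after menthol, which the labels leave unstated for M and control, took part was not tested.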

How the results depend on the processing

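The count of positive and negative calls, 3 and 18, moved with the filter and the model of spread. It was 0 and 1 with no filter, 0 and 1 with an ordinary linear model (Klhl6 in both), 0 and 2 with the probe set of largest variance, and 14 and 31 with trended and robust eBayes. Averaging the probe sets of a gene gave 5 and 16, of which 2 and 13 were among the main calls. Cmpk2, Pde4b and Hivep3 were not kept there. It was 54 and 70 with an unadjusted p, and 3 and 8 with a fold minimum of 2. With every probe set tested by itself, chosen after seeing the data, it was 0 and 2. The cause of these moves was not tested. A stricter filter, a mean of at least 6, gave 3 and 19, of which 2 and 16 were among the main calls. Ifit1, Gbp2b and Cd83 did not pass it and so were not tested there. A filter on any group mean gave 3 and 20, quantile normalization 4 and 18, median centring of the arrays 3 and 20, and no fold minimum 4 and 18. The deposited values were already quantile normalized, so further normalization could move them little. Leaving out 1 array gave 0 to 10 positive and 2 to 32 negative calls. The labels do not say that replicate numbers mark a shared batch, and deviations of same-numbered arrays correlated by -0.12 to 0.19. With the number as a replicate block, the calls were 4 positive and 16 negative, and Gphn, Ifit2, Inka1, Irak3 and Pde4b lost theirs. No called gene reversed in the settings that kept it. With every probe set tested by itself, the sign was not scored for each gene. Ccl2 (0.042) turned to -0.051 without M replicate 1 and -0.076 without LPS+M replicate 1, with a range of -0.076 to 0.16 over the left-out arrays, and on the linear scale Ccl2 had -0.76, Ccl3 -0.61, Ccl4 -0.30 and Ccl12 -0.41. GC-RMA background limits what a fall can show in genes such as Ifit1 without LPS.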
